A study of Mus musculus with 9 samples.

Results

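The keratin gene family was taken as every protein-coding mouse gene whose symbol is Krt followed by a number and an optional letter, which leaves out the keratin-associated protein genes. It has 53 members among 21887 protein-coding genes (RefSeq, GRCm38.p6, the same build as mm10), 27 on chromosome 11 and 26 on chromosome 15. Their neighbourhoods were searched for binding of Sox2, a transcription factor of the proximal airway and oesophagus, mapped by ChIP-seq (sequencing of the DNA that an antibody pulls down with a protein) in lung epithelial cells of C57BL/6 mice aged 8 weeks. The series holds 9 libraries, an input, an IgG and a Sox2 ChIP library for each of 3 conditions: wildtype cells, cells with ectopic Sox2 expression, and cells with both ectopic Sox2 expression and Nkx2-1 deletion. Nkx2-1 is a transcription factor that lung epithelium needs for its identity. How Sox2 was driven, how Nkx2-1 was deleted and how many animals stood behind a library are not stated in the labels. Input and IgG libraries were left aside. With 1 Sox2 ChIP library per condition there is no replicate check and no test between conditions, and all intervals are 95% intervals that cover counting error only. A peak list holds no expression values, so neither the cell type nor the genotype could be checked against marker genes.

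Keratins are the intermediate filament proteins of epithelial cells. A filament is built from dimers of a type I and a type II keratin, and in the mouse the type I genes lie together on chromosome 11 and the type II genes on chromosome 15, where the type I gene Krt18 also lies. Simple epithelia, such as the lining of the airways and alveoli, carry Krt7, Krt8, Krt18 and Krt19, basal cells carry Krt5 with Krt14 or Krt15, and cells leaving the basal layer, wounded epithelium and hair each switch on other pairs.

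A summit is the position of highest ChIP signal in a listed region, and a keratin gene near a summit is a gene with at least 1 summit in its span or at most 50 kb outside it. Fragments are ChIP fragments over the summit, recovered from the listed values, and the control background is the signal expected there from the control library, in the same unit. The mean ChIP coverage recovered in this way, used here as depth, was 0.963 fragments per base for the wildtype library, 0.764 for the ectopic Sox2 library and 1.45 for the Nkx2-1 deleted library. The lists held 552, 229 and 2589 summits. The fold, −log10 p and −log10 q of a summit are the authors' values and describe it within its own list.

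Promoters of keratin genes beside the summits described below are shown, so that the sequence before these genes can be read beside the distances. The RefSeq table of promoter windows (GRCm38.p6, from 250 bases before to 50 bases after the start) held 36 of the 53 members, in 37 windows, and the windows with a summit inside them numbered 0 in each of the 3 lists. Krt6a and Krt222 are not among the 36. Krt5, the neighbour of Krt6a on the same summit, is shown for that summit, and no promoter is shown for the region near Krt222. The 250 bases before the start are given 5′ to 3′ along the gene, with capitals for the motifs found:
Krt5, chr15:101712906-101713155, minus strand: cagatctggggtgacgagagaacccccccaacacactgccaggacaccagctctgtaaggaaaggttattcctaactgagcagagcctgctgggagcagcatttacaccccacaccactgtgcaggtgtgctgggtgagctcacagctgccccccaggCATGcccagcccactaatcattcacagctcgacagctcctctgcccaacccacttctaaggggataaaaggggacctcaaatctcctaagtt
Krt20, chr11:99438154-99438403, minus strand: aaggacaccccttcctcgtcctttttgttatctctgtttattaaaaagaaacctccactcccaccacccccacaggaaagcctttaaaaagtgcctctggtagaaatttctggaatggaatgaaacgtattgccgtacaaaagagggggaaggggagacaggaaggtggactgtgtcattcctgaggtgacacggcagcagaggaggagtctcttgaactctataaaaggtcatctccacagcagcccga
Krt39, chr11:99521339-99521588, minus strand: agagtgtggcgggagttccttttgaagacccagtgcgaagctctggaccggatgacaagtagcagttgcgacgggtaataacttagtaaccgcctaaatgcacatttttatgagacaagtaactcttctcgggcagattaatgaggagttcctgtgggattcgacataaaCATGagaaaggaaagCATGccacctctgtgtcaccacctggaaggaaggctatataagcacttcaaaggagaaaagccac
Krt9, chr11:100193247-100193496, minus strand: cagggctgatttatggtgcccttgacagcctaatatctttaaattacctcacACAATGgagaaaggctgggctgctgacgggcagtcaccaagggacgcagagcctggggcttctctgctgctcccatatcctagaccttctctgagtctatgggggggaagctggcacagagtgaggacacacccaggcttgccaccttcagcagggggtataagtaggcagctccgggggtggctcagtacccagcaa

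The Krt9 promoter holds ACAATG, a Sox motif core, at 198 bases before the start. The Krt5 promoter holds CATG, the core letters of a p53 family half-site, at 92 bases before the start, and the Krt39 promoter holds it at 80 and 65 bases before the start. The summits counted for Krt9 and Krt5 do not lie on the promoter side of these genes. They lie beyond the opposite end, 24.1 kb from the Krt9 start and 18.3 kb from the Krt5 start. Searched on both strands, either Sox core, ACAAAG or ACAATG, was in 8 of the 37 member windows, 21.6%, against 28.6% of all 32851 windows of the same length. The 8 windows belong to Krt9, Krt18, Krt23, Krt25, Krt31, Krt36, Krt42 and Krt84. The Nkx2 core CAAGTG was in 4 member windows, 10.8%, against 13.6% of all. CATG was in 24, 64.9%, against 61.1%, the AP-1 site TGAGTCA in 1, 2.70%, against 5.20%, and TTTGCAT, part of an octamer site, in 0 of 37 against 4.63%. A match describes the letters of the window and is not a measured site.

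In the Nkx2-1 deleted list, 15 of the 53 keratin genes were near a summit, or 28.3%, where 13.1% of all protein-coding genes were. With ectopic Sox2 alone there were 5, or 9.43%, against 1.53% of all genes, and in wildtype 1, or 1.89%, against 2.85%. The wildtype share was near that of all genes, and the other 2 shares were above it. Keratin genes lie close together and share summits, so the genes near a summit are not independent: the 15 genes rested on 5 summits, the 5 genes on 2, and the 1 gene on 1. Of the 5 summits with Nkx2-1 deletion, 4 were at the chromosome 11 cluster and 1 at the chromosome 15 cluster. The ectopic Sox2 list had 1 at each, and the wildtype list had its 1 on chromosome 11.

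**Figure D1:**
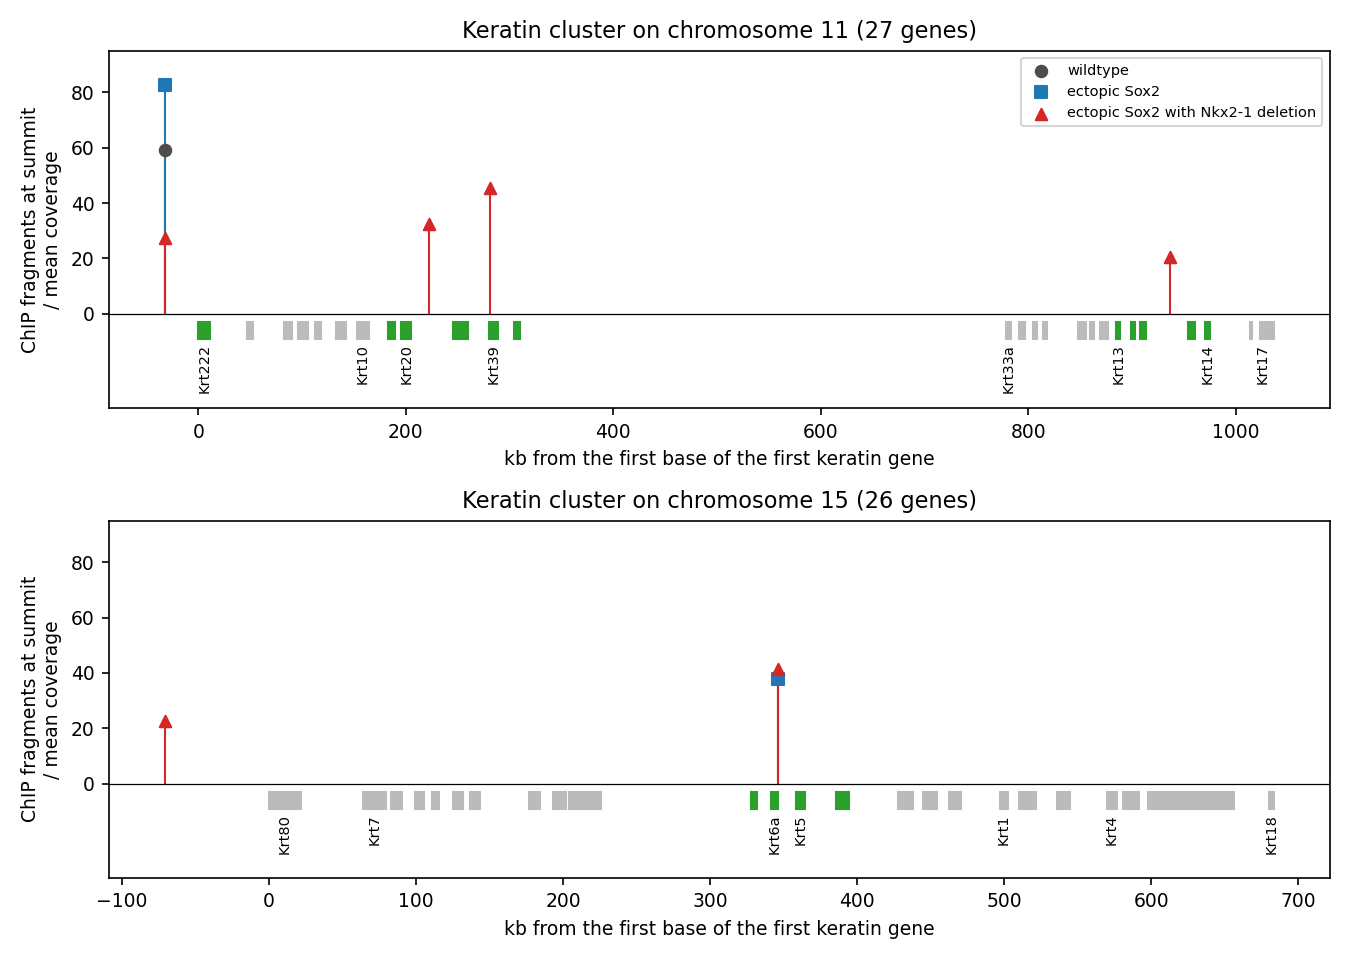
Map of both keratin clusters: each bar is a keratin gene (green where a summit of the Nkx2-1 deleted list lies within 50 kb, grey otherwise), and each stalk is a listed summit up to 100 kb from a keratin gene, with its height the ChIP fragments divided by the library's mean coverage. The x axis is kb from the first base of the first keratin gene; a few genes are labelled. The Nkx2-1 deleted library has 4 summits at the chromosome 11 cluster, the leftmost of which is in all 3 lists, and the summit beside Krt6a on chromosome 15 is in the ectopic Sox2 and Nkx2-1 deleted lists.

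On chromosome 15, which holds the type II genes, a single region lay inside the cluster, beside Krt6a, and it was in the lists of both libraries with ectopic Sox2. Krt6a encodes a keratin of wounded and hyperproliferative epithelium and of the oral and hair follicle epithelium. With ectopic Sox2 the region ran from 101694411 to 101694659 (mm10) with a fold of 5.74, a −log10 q of 5.73 and 29 fragments (interval 19.4 to 41.6) over a control background of 3.76. With Nkx2-1 deletion it ran from 101694436 to 101694672 with a fold of 3.30, a −log10 q of 3.76 and 60 fragments (45.8 to 77.2) over a control background of 16.5. The wildtype list had no region here, and its nearest summit to Krt6a was 4374 kb away. The 2 summits were 23 bp apart.

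The summit lay outside Krt6a, beyond its higher-coordinate end, by 254 bp with ectopic Sox2 and 277 bp with Nkx2-1 deletion. The strand of Krt6a was not taken from the promoter table, which gave 14 of the 16 chromosome 15 members it holds on the minus strand, the others being Krt7 and Krt18. That table holds no start for Krt6a or Krt6b, so the distance from the summit to their starts was not measured. If Krt6a runs on the minus strand, its higher-coordinate end, the one beside the summit, is its start. The nearest start that the table does hold, that of Krt5, was 18.3 kb from the summit in both lists. The same summit was also counted for Krt5, the basal cell keratin, at 12.5 kb, for Krt6b, a close relative of Krt6a, at 14.3 kb, and for Krt71, a keratin of the inner root sheath of hair, at 39.4 kb. No other protein-coding gene lay within 50 kb of it. Krt6a and Krt6b are near-identical copies, and how reads that fit both were placed is not stated in the labels.

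Scaled by depth, the Krt6a region held 1.09 times as many fragments with Nkx2-1 deletion as with ectopic Sox2 alone (interval 0.688 to 1.76), which includes 1. With the control background subtracted from each the ratio was 0.906, on the other side of 1. A difference was thus not detectable at this depth, in either direction. Over the 118 regions shared by these 2 lists the median ratio was 1.27, with quartiles of 1.01 and 1.56, and 39 of the 118 regions were at or below the Krt6a ratio. The lower fold with Nkx2-1 deletion went with a high control background, since 97.4% of that list's summits had a background at or below it and their median was 4.72 fragments. In the ectopic Sox2 list 76.4% of summits were at or below the background of this region, and the median was 1.88. Divided by depth, the control background of the Krt6a region was 4.92 in the ectopic Sox2 library and 11.4 in the Nkx2-1 deleted one. The part of the control background in the lower fold was not tested.

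On chromosome 11, which holds the type I genes, 3 summits lay within the cluster, all in the Nkx2-1 deleted list and without an overlapping region in either other list. The strongest by q lay between Krt20 and Krt23, at 99454825 to 99455102, with a fold of 8.71, a −log10 q of 11.2 and 47 fragments (34.5 to 62.5) over a control background of 3.31. It ranked 343 of 2589 by q and was 16.8 kb from Krt20, a keratin of intestinal epithelium and Merkel cells, upstream of its start. It was also within 23.0 kb of Krt23 and 32.4 kb of Krt12, the keratin of corneal epithelium. No gene other than these 3 keratins lay within 50 kb.

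The next summit lay inside Krt39, a hair keratin, and was the only summit inside a keratin gene in any of the 3 lists. Its region, 99514165 to 99514450, had a fold of 4.82, a −log10 q of 7.63 and 66 fragments (51.0 to 84.0), the most of the 5 summits in this list, over a control background of 11.8. It lay 7031 bp downstream of the Krt39 start, 21.2 kb from Krt23 and 22.4 kb from Krt40, another hair keratin. Exons and introns were not told apart, since the annotation used gives spans only. Krt23 thus had 2 summits within 50 kb, the only member that did, and the genes Krtap3-3 and Krtap3-2 were within 50 kb too.

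The last summit on chromosome 11 was weak and stood for 5 genes. At 100169057 to 100169308, it had a fold of 3.43, a −log10 q of 1.45 and 30 fragments (20.2 to 42.8) over a control background of 7.09, and ranked 2563 of 2589 by q. It lay 17.6 kb from Krt9, the keratin of palm and sole epidermis, 23.3 kb from Krt19, a simple epithelial keratin, 33.2 kb from Krt15 and 34.0 kb from Krt14, both basal, and 47.6 kb from Krt13, the type I keratin of mucosal stratified epithelium such as oesophagus. The counts for the basal type I genes with Nkx2-1 deletion therefore rest on this summit alone.

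**Figure D2:**
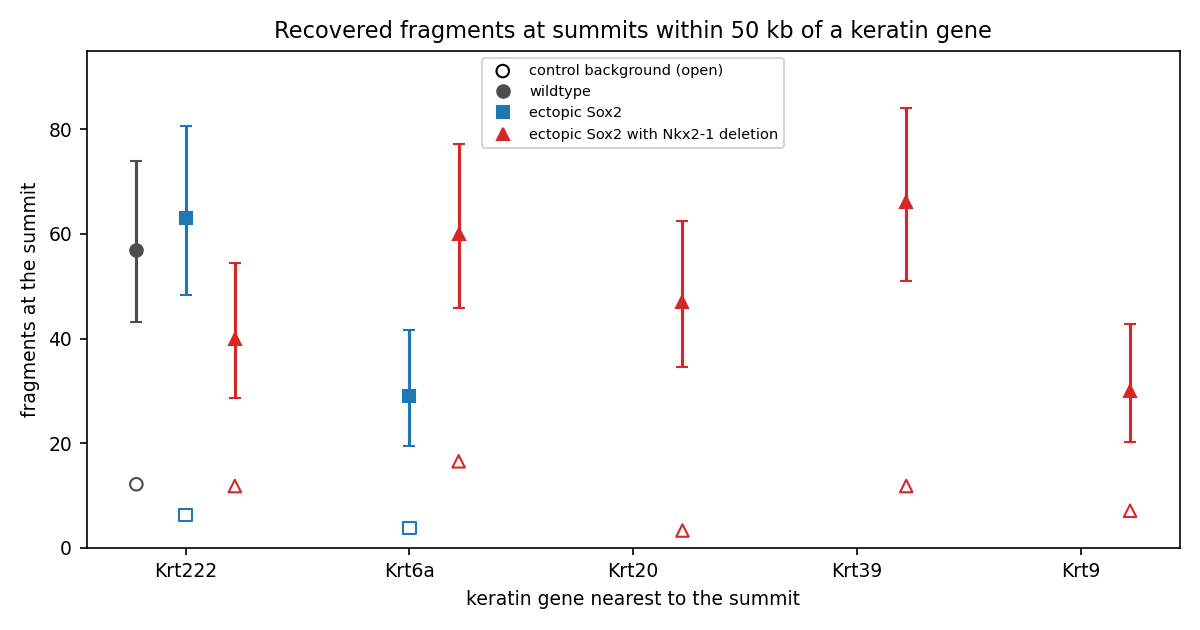
ChIP fragments (filled, with exact Poisson 95% intervals) and control background (open) at each summit within 50 kb of a keratin gene, by the nearest keratin gene (x axis) and library (colour and shape); the y axis counts fragments, not scaled by depth. The Krt222 region has a value in all 3 libraries, the Krt6a region in 2, and the Krt20, Krt39 and Krt9 summits, with 47, 66 and 30 fragments, only in the Nkx2-1 deleted list.

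The remaining region was the only keratin neighbour in all 3 lists, and it lay at the outer edge of the chromosome 11 cluster, 32.5 kb (wildtype and ectopic Sox2) to 32.6 kb (Nkx2-1 deletion) from Krt222. Its nearest gene was not a keratin but Smarce1, a subunit of the SWI/SNF chromatin remodelling complex, 8.82 to 8.84 kb away, and Ccr7, a chemokine receptor gene, was also within 50 kb. In wildtype it spanned 99200072 to 99200336 with a fold of 4.32, a −log10 q of 10.1 and 57 fragments (43.2 to 73.9). With ectopic Sox2 it spanned 99200111 to 99200340 with a fold of 8.24, a −log10 q of 19.8 and 63 fragments (48.4 to 80.6), which was rank 7 of 229 by q and rank 2 by fragments. With Nkx2-1 deletion it spanned 99200153 to 99200352 with a fold of 2.99, a −log10 q of 1.38, equal to the lowest in that list, and 40 fragments (28.6 to 54.5). The 3 summits lay within 21 bp of each other.

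Scaled by depth, this region held 0.334 times as many fragments with Nkx2-1 deletion as with ectopic Sox2 alone (interval 0.219 to 0.504) and 0.466 times as many as in wildtype (0.303 to 0.710). Each ratio was the lowest of the regions shared by those lists, 118 and 270 regions with median ratios of 1.27 and 1.34. Regions missing from the Nkx2-1 deleted list have no ratio, so a region with a larger loss there could not be ranked. Between ectopic Sox2 and wildtype the ratio was 1.39 (0.959 to 2.03), which includes 1, where the median of 100 shared regions was 0.957 and 90 of them were at or below 1.39. Both intervals of the Nkx2-1 deleted library thus lay below 1, but each compares 2 libraries and not the conditions. Divided by depth, the control background of this region was 12.6 for the wildtype library, 8.21 for the ectopic Sox2 library and 8.13 for the Nkx2-1 deleted library, so it was alike in the last 2 libraries here, which it was not at the Krt6a region. In wildtype only 6 summits of 552 had a higher control background.

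**Figure D3:**
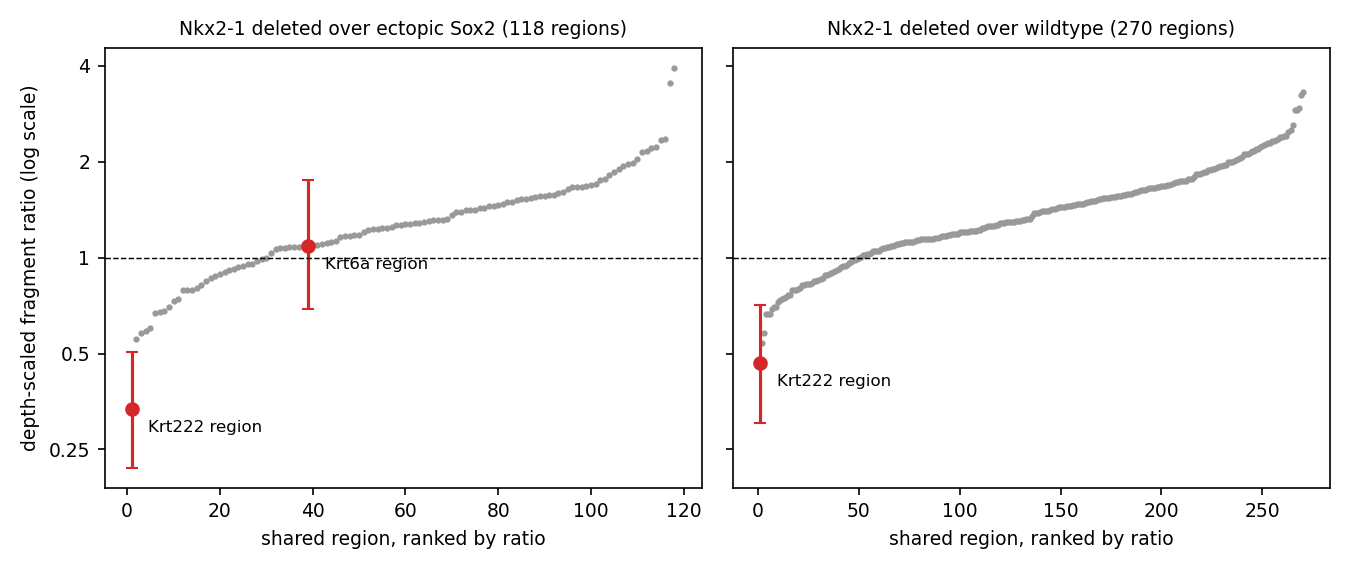
Depth-scaled ratio of fragments between the Nkx2-1 deleted library and ectopic Sox2 (left, 118 shared regions) or wildtype (right, 270), on a log axis and ranked from lowest to highest; grey points are all shared regions and red points, with exact binomial 95% intervals, the keratin neighbours. The Krt222 region is the lowest point in both panels, at 0.334 and 0.466, and the Krt6a region, at 1.09, is in the body of the left panel.

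The counts by role stand beside the shares of all genes given above, 2.85% in wildtype, 1.53% for ectopic Sox2 and 13.1% after Nkx2-1 deletion, and they rest on the same few summits, so they describe positions and single out no role. All 3 basal keratin genes (Krt5, Krt14 and Krt15) were near a summit with Nkx2-1 deletion, on 2 summits, since Krt14 and Krt15 share the one with a −log10 q of 1.45. With only summits whose −log10 q reached 5, 0 of the 3 were left. Krt5 alone was near a summit with ectopic Sox2, and it was left at that limit. Of the 4 keratins of wounded epithelium, Krt6a and Krt6b were near the same summit in both these lists, whereas Krt16 and Krt17 were 76.9 kb and 87.0 kb from a summit with Nkx2-1 deletion. Of 6 simple epithelial keratins, Krt19, Krt20 and Krt23 were near a summit with Nkx2-1 deletion and 0 with ectopic Sox2. Of the 5 suprabasal epidermal genes only Krt9 was, and of the 4 mucosal genes only Krt13. Of the 23 hair keratins 3 were, or 13.0%, near the share of all genes: Krt39 and Krt40 of 15 cortex and cuticle genes and Krt71 of 8 inner root sheath and companion layer genes. The only corneal member, Krt12, was near a summit, and Krt222 was so among the 7 members of no assigned role. In wildtype none of these roles had a member near a summit other than Krt222.

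Keratins pair as type I with type II, and of 5 known pairs only Krt5 and Krt14, the basal pair, both had a nearby summit with Nkx2-1 deletion. Both rest on summits shared with other keratins, with −log10 q of 3.76 for Krt5 and 1.45 for Krt14. Neither gene was left at a −log10 q of at least 5 or by nearest gene. The pairs were added after the lists were seen, so this singles out no pair. Krt6a had a nearby summit and its partner Krt16 did not. Krt13 had one while its mucosal partner Krt4 lay 224 kb from the nearest. Krt1 and Krt10, the pair of differentiating epidermis, had none, at 151 kb and 57.5 kb. Krt8 and Krt18, the pair of lung and other simple epithelia, had none in any list. They lay 302 kb and 334 kb from the nearest summit in both lists with ectopic Sox2 and 4681 kb and 4713 kb from it in wildtype. Krt7, another keratin of simple epithelium, was 135 kb from a summit with Nkx2-1 deletion, 267 kb with ectopic Sox2 and 4097 kb in wildtype. With ectopic Sox2 alone, Krt5 was near a summit and Krt14 was 1003 kb from the nearest.

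The 50 kb limit fell between Krt13, at 47.6 kb the farthest member counted with Nkx2-1 deletion, and Krt10 at 57.5 kb, the nearest member not counted. Beyond Krt10 came Krt36 at 59.7 kb, Krt80 at 71.0 kb, Krt35 at 73.0 kb, Krt16 at 76.9 kb, Krt24 at 79.7 kb, Krt28 at 80.1 kb, Krt32 at 80.9 kb, Krt72 at 81.6 kb, Krt17 at 87.0 kb, Krt42 at 93.7 kb and Krt73 at 98.7 kb. For Krt80 the summit, at chromosome 15, 101277265 to 101277513, had a fold of 7.49 and 33 fragments and was 2.57 kb from Nr4a1, a nuclear receptor gene. The other 26 members were more than 100 kb from any summit of the 3 lists, and the farthest was Krt18. The median distance from a member to the nearest summit was 98.7 kb with Nkx2-1 deletion, 231 kb with ectopic Sox2 and 1063 kb in wildtype. Over all protein-coding genes with a summit on their chromosome it was 400 kb, 4264 kb and 1853 kb. Neighbouring members share their nearest summit, so the member medians describe where the clusters lie and not independent genes.

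**Figure D4:**
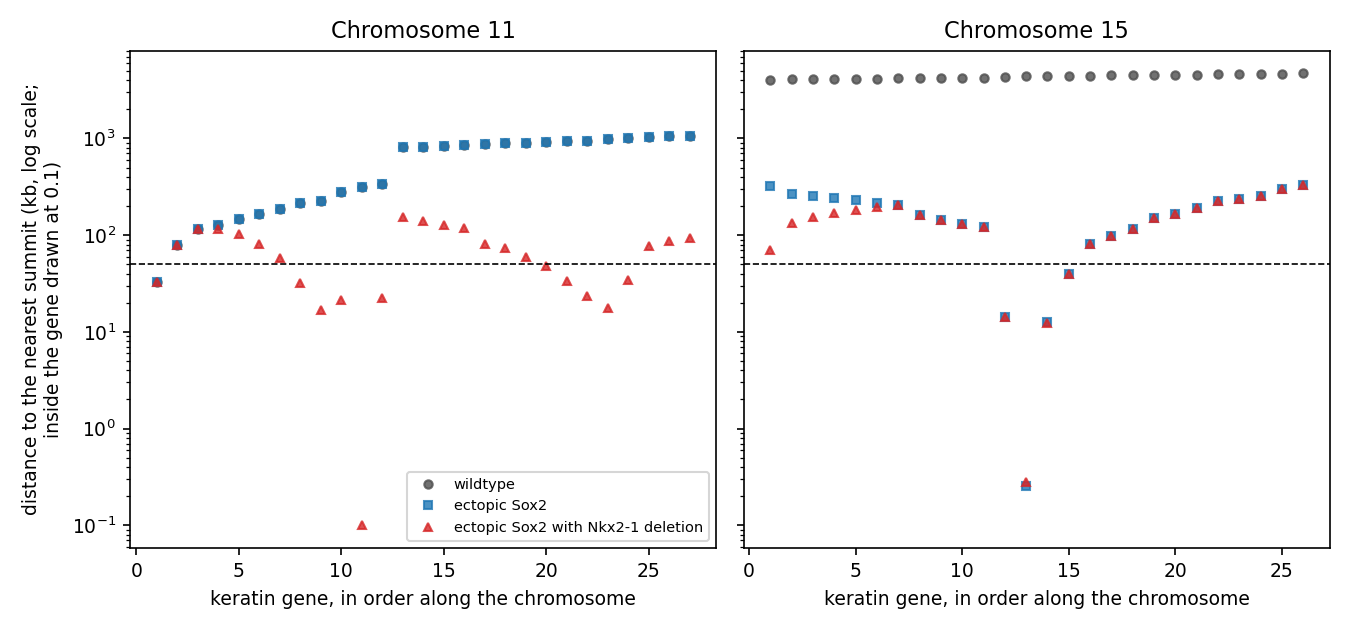
Distance in kb (log axis) from each keratin gene, in order along its chromosome, to the nearest summit in each list; the dashed line marks 50 kb, and a gene with a summit inside it is drawn at 0.1 kb. On chromosome 11 the wildtype points lie under the ectopic Sox2 points because both lists share the region near Krt222, and the Nkx2-1 deleted points dip around Krt39 and Krt9; on chromosome 15 both lists with ectopic Sox2 dip at Krt6a.

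How far the keratin share stood above that of all genes depended on the rule. Within 10 kb it was 2 of 53 with Nkx2-1 deletion, Krt39 and Krt6a, or 3.77% against 6.47% of all genes. It was 1 with ectopic Sox2, Krt6a, or 1.89% against 0.736%, and 0 in wildtype against 1.37%. Within 100 kb it was 27 with Nkx2-1 deletion, or 50.9% against 20.7%, 8 with ectopic Sox2, or 15.1% against 2.45%, and 2 in wildtype, or 3.77% against 4.66%. Keeping only summits whose −log10 q reached 5, it was 5 with Nkx2-1 deletion (Krt12, Krt20, Krt23, Krt39 and Krt40), or 9.43% against 8.83%. It was 5 with ectopic Sox2, or 9.43% against 1.18%, and 1 in wildtype, or 1.89% against 1.88%. With each summit given to its nearest gene only, it was 4 with Nkx2-1 deletion (Krt6a, Krt9, Krt20 and Krt39), or 7.55% against 8.48%. It was 1 with ectopic Sox2 (Krt6a), or 1.89% against 1.00%, and 0 in wildtype against 2.18%. With regions common to the 3 lists dropped, it was 14 with Nkx2-1 deletion, or 26.4% against 12.9%, 4 with ectopic Sox2, or 7.55% against 1.21%, and 0 in wildtype against 2.55%. With Nkx2-1 deletion the keratin share was therefore near or below that of all genes under the 10 kb, q and nearest gene rules.

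**Figure D5:**
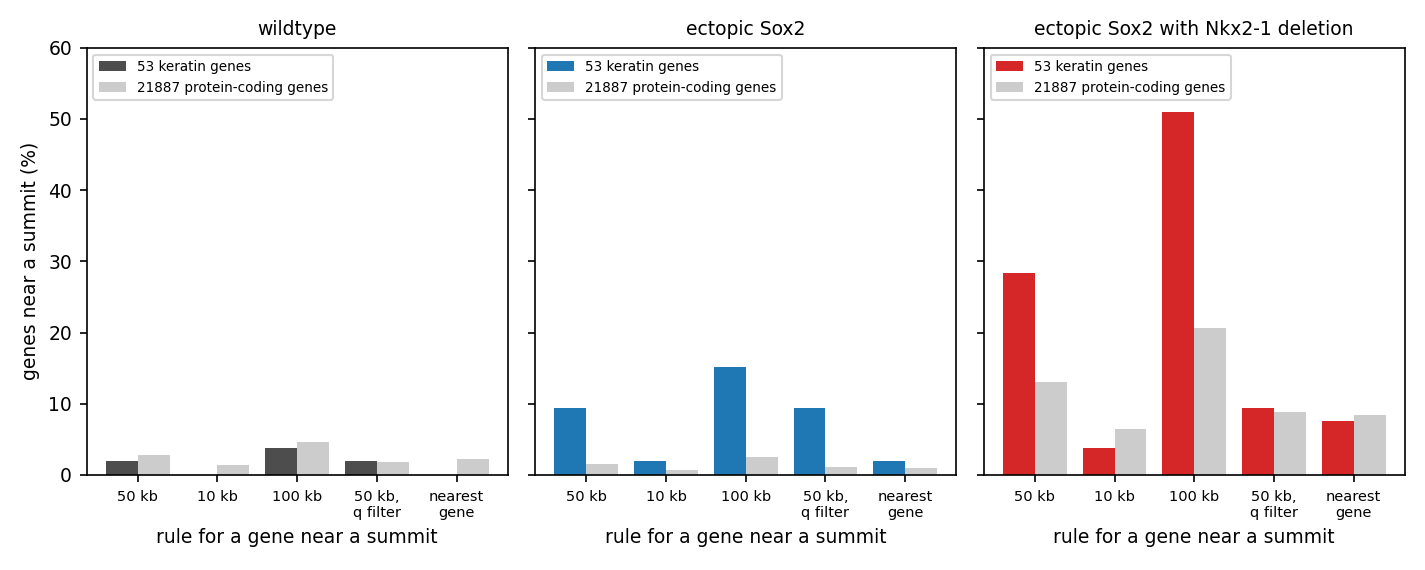
Share of the 53 keratin genes (colour) and of all 21887 protein-coding genes (grey) near a summit, in percent, for each library (panel) and rule (x axis); the q filter keeps summits with −log10 q of at least 5. With Nkx2-1 deletion the keratin bar is above the grey bar at 50 kb (28.3% against 13.1%) and 100 kb, and below it at 10 kb (3.77% against 6.47%) and by nearest gene.

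Counted by summit and length in place of genes, the 2 clusters with 50 kb on each side cover 1.92 Mb. They held 26.0 summits per 10 Mb with Nkx2-1 deletion (exact Poisson interval 8.45 to 60.7), where the genome from the first to the last gene of each chromosome held 9.61. The values were 10.4 (1.26 to 37.6) against 0.851 with ectopic Sox2 and 5.21 (0.132 to 29.0) against 2.05 in wildtype. With Nkx2-1 deletion and in wildtype the interval includes the genome value. The ectopic Sox2 interval does not, but 1 of its 2 summits is the region near Krt222, outside the cluster in the added 50 kb. Counted without the 50 kb, the clusters held 4 summits in the Nkx2-1 deleted list, 1 in the ectopic Sox2 list and 0 in the wildtype list. No interval was computed for these counts, and the genome value was not matched for gene density. The ectopic Sox2 interval was computed only with the 50 kb and rests on 2 summits. Whether the clusters alone stand apart from the genome was not tested. The chromosome 11 cluster is split by a stretch of 468 kb that holds 23 keratin-associated protein genes, the structural proteins of hair. Counted without the 50 kb on each side, this stretch held 0 summits in each of the 3 lists. With the 50 kb it held 1 with Nkx2-1 deletion, and its interval included the genome value in each list. Also without the 50 kb, the block before it, with 12 keratin genes from Krt222 to Krt40, held 2 summits with Nkx2-1 deletion. The block after it, with 15 from Krt33a to Krt42, held 1.

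The 3 sites found only with Nkx2-1 deletion were scaled to the depth of the other libraries. At the coverage measured with Nkx2-1 deletion, the Krt39 site would give 34.7 fragments (26.9 to 44.2) at the ectopic Sox2 depth, and the 37 ectopic Sox2 summits of like control background started at 21 fragments. The Krt20 site would give 24.7 (18.2 to 32.9), against 63 such summits starting at 14. The Krt9 site would give 15.8 (10.6 to 22.5), against 39 starting at 20. At the wildtype depth the Krt39, Krt20 and Krt9 sites would give 43.8, 31.2 and 19.9 fragments, where such summits started at 23, 13 and 18. The Krt6a site would give 39.8 (30.4 to 51.2) in wildtype, where they started at 30. These values assume the same control background per depth in every library, which was not measured at unlisted sites and did not hold at the Krt6a region between the 2 libraries that list it. That region, scaled from Nkx2-1 deletion to the ectopic Sox2 depth, would give 31.6 fragments, below the 36 at which the 13 ectopic Sox2 summits of like background started, and yet it is listed there with 29. The scaled values are thus a description, and do not show which sites would have been listed.

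Other genes of the filament network were counted in the same way, in 3 lists. The list of 18 other intermediate filament genes also holds Eppk1, a gene of a filament-binding protein, which was near no summit. Of the 18, 2 were near a summit with Nkx2-1 deletion, or 11.1%, near the 13.1% of all genes. With ectopic Sox2 there were 0 and in wildtype 1. The 2 were the lens filament gene Bfsp1, with a summit inside the gene of fold 9.67 and 57 fragments, and the nuclear lamin gene Lmnb1, with a summit inside the gene of fold 5.13 and 34 fragments. The wildtype gene was Bfsp2, the lens partner of Bfsp1, at 47.9 kb. The list of 16 filament linker genes was chosen broadly. It also holds Macf1, Tchhl1 and Rptn, which are not taken here as keratin linkers and were near no summit. Of the 16, 3 had a summit with Nkx2-1 deletion, or 18.8%, against the same 13.1%, and 0 in both other lists. Ppl, which encodes periplakin of the desmosome and cornified envelope, had a summit of fold 8.00 and 43 fragments at 13.2 kb. Pkp1, the plakophilin of stratified epithelia, had its strongest at 18.8 kb with fold 5.41 and 36 fragments, and Dst, which encodes the hemidesmosomal plakin, had a summit inside the gene with fold 5.84 and 28 fragments. Of 56 keratin-associated protein genes, 2 were near a summit with Nkx2-1 deletion, or 3.57%, both on the Krt39 summit, and 0 in both other lists.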

How the data were processed

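Peak lists of the 3 Sox2 ChIP libraries were used, each deposited per library in the narrowPeak format. The submitters' processing notes name Bowtie2 2.2.9, SAMtools 1.4, MACS2 2.1.1, HOMER 4.8.3 and mm10. Neither the labels nor those notes say which control library, calling threshold or duplicate handling was used. Each of the authors' lists gives a score, a fold ratio over the control background, −log10 p and −log10 q per summit. Positions count from 0 in the files and from 1 here.

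Fragments and control background were solved from fold and −log10 p (pseudocount 1, Poisson upper tail, tolerance 0.002 in −log10 p), with a single solution for 99.5%, 100% and 99.8% of summits in wildtype, ectopic Sox2 and Nkx2-1 deletion. A scale per library was fitted first, at 0.741, 0.638 and 0.423 in the same order. The fold applies to fragments and background multiplied by this scale, each with the pseudocount added. Both are printed here without the scale, so their ratio is not the listed fold. At the keratin summits the solution was single. Depth is how many fragments the genome-wide control background amounts to, a recovered value and not a read total. The solver was tested on simulated data. Scores ranked nothing here. Control backgrounds equal to 3 decimals were ranked as ties. Poisson and Clopper-Pearson intervals used scipy 1.17.1 in Python 3.11.15, and figures matplotlib 3.10.9. Regions were shared at an overlap of 1 bp or more. Ratios were of fragments over depth, and for background the best summit of each shared region was used. Summits of like control background are those within 0.75 to 1.25 times the site's background per depth.

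Named are all members near a summit in any list, those up to 100 kb, simple epithelial keratins, and genes of 3 other lists near a summit. Members, roles and lists were chosen with earlier results of these data known. The partner pairs and the scaling of fragments to another depth were added after the lists were seen.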

Additional observations from a re-analysis of the deposited data

How the results depend on the processing

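The number of keratin genes near a summit moved by more than 1.5 times under several rules. For wildtype (main value 1) it was 0 within 10 kb, 2 within 100 kb, 0 when regions common to the 3 lists were dropped and 0 by nearest gene. For ectopic Sox2 (5) it was 8 within 100 kb and 1 both within 10 kb and by nearest gene. For ectopic Sox2 with Nkx2-1 deletion (15) it was 27 within 100 kb, 4 by nearest gene, 2 within 10 kb and 5 for summits whose −log10 q reached 5. Separate summits moved likewise: wildtype (1) had 0 within 10 kb and 0 with the common regions dropped, ectopic Sox2 (2) had 1 under each of these, and Nkx2-1 deletion (5) had 2 within 10 kb and 2 whose −log10 q reached 5. Counting the summits of a region once changed no count. The 4 depth-scaled ratios stayed within their intervals under reciprocal overlap of at least 50% and with the control background subtracted, where the Krt6a ratio was 0.906 and the Krt222 ratios were 0.261, 0.417 and 1.60. A wider window takes in more genes, and a stricter q fewer summits, by construction. The Krt9 and Krt222 summits with Nkx2-1 deletion had −log10 q of 1.45 and 1.38, near the list's lowest of 1.38, and the part of depth in this was not tested. No paired analysis was possible because each condition has 1 Sox2 ChIP library.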
